A study of Mus musculus with 12 samples.

Results

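10 genes of the p53 family, its regulators and the CDK inhibitors were followed in mammary tumours grown from a mouse breast cancer line. They were taken from the count table by symbol, 10 of 39017 genes, by a rule that reads the symbol and no measured value: Trp53, Trp63 and Trp73 (the p53 family), Mdm4, Ppm1d and Usp7 (regulators of p53), Cdkn2a and Cdkn2b (INK4 inhibitors and Arf), and Cdkn1b and Cdkn1c (CIP/KIP inhibitors). Each of the 10 symbols had 1 row in the table, and 9 of the 10 genes had enough reads to be tested. The exception was Trp73.

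The tumours came from NIC cells, an ErbB2-positive mouse breast cancer line that lacks p66ShcA, the longest product of the Shc1 gene. There were 4 groups of 3 bulk tumours. p66High aggressive tumours came from cells engineered to overexpress p66ShcA constitutively and then explanted after serial passage in mammary fat pads. p66Low aggressive tumours came from cells without that transgene that had been passaged in the same way. p66High parental tumours came from the engineered cells before passage, and p66Low parental tumours from the cells that had neither. Both explanted populations grew faster and metastasised more than their parental cells, according to the study's design. All cells were injected into the fourth fat pad of FVB/N females that were 8 to 12 weeks old, at 250000 cells a mouse. Each group is 1 cell population, so a difference between groups is a difference between populations, and the labels do not state if each tumour grew in a mouse of its own. In both p66High groups, the titles of replicates 1 and 2 share a number and differ by the letter L or R, which the labels do not explain.

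p53 is a transcription factor that halts the cell cycle or kills the cell when DNA is damaged or an oncogene is active. It is held low by Mdm2 and its partner Mdm4, is dephosphorylated by Ppm1d (Wip1), and is deubiquitinated together with Mdm2 by Usp7. The Cdkn2a locus makes 2 unrelated proteins from separate first exons: p16Ink4a, which blocks the cyclin D kinases and so keeps RB active, and Arf, which binds Mdm2 and so stabilises p53. Cdkn2b (p15Ink4b) blocks the same kinases, while Cdkn1b (p27Kip1) and Cdkn1c (p57Kip2) bind cyclin-kinase complexes more widely. In ErbB2-driven mammary tumours as in other tumours, p53 and the CDK inhibitors act as brakes on proliferation.

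Cdkn2a and Cdkn2b were among the called members and lie next to each other on chromosome 4, so the promoter windows of their starts are shown. Each runs from 250 bases before to 50 bases after the RefSeq start (GRCm38.p6, minus strand, 5′ to 3′), and capitals mark GC boxes (GGGCGG) and the cyclic AMP response element (TGACGTCA). The first is the Arf start at chr4:89294570-89294869, the second the p16Ink4a start at chr4:89282143-89282442, and the third the Cdkn2b start at chr4:89310983-89311282.
Cdkn2a, Arf start: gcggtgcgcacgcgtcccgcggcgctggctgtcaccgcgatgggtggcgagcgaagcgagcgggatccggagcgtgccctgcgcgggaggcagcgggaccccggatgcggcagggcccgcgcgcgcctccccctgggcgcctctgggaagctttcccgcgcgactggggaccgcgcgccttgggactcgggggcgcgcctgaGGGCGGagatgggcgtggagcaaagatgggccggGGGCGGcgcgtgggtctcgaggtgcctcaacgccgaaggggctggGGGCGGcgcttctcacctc
Cdkn2a, p16Ink4a start: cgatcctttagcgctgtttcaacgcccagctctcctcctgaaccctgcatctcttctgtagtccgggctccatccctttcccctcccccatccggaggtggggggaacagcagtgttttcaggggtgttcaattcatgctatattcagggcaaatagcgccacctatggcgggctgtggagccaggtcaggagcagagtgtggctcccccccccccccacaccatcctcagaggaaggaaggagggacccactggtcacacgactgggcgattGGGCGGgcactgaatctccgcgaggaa
Cdkn2b start: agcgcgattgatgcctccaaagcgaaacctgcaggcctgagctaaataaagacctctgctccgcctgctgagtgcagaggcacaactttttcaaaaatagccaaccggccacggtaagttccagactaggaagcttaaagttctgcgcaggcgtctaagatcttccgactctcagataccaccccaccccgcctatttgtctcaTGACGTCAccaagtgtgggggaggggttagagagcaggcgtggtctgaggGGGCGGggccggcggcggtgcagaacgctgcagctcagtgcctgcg
The Arf window held 3 GC boxes and was 77.0% G and C. The p16Ink4a window held 1 GC box at 60.3% G and C. The Cdkn2b window held 1 GC box and the 1 cyclic AMP response element at 57.7% G and C. Over all 32851 promoter windows of this length, 35.7% had a GC box and 1.79% the response element, counting both strands. None of the 3 windows matched the E2F sequences TTTGGCGC or TTTCGCGC, present in 0.813% of all windows, or a p53 half-site, present in 8.36%. RefSeq windows matched 8 of the 10 genes, all but Trp63 and Cdkn1c, with 11 windows in all, and p53 half-site letters were found in 2 of the 11. The deposited counts are per gene, so reads from the Arf and p16Ink4a starts are summed in every Cdkn2a value below.

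Libraries held 17.4 to 76.1 M counts (M, mega-counts of reads assigned to genes), and levels are CPM, counts per 1 M of the TMM-scaled library. Shc1 was at 223 to 774 CPM in the 6 p66High tumours, against 59.0 to 69.9 CPM in the 6 p66Low tumours, as the labels imply, with the highest value in p66High aggressive replicate 3. Erbb2 was at 50.6 to 89.6 CPM throughout. Of 10 lymph node stroma markers, the summed level was 197 and 288 CPM in p66Low aggressive replicates 1 and 2 and 66.4 CPM in p66High parental replicate 3, and 1.77 to 6.88 CPM in the other 9 tumours. The summed level of 10 B cell markers was 41.8 to 207 CPM in the same 3 tumours and 0.863 to 4.91 CPM in the other 9. That of 12 T cell markers was 48.1 to 246 CPM in those 3 and 2.89 to 12.1 CPM in another 8, while p66Low aggressive replicate 3 had 37.7 CPM, so leaving out the 3 libraries keeps a p66Low aggressive tumour with raised T cell markers. In p66Low aggressive tumours 9 of 10 B cell and 12 of 12 T cell markers were higher than in p66Low parental tumours, and in p66High aggressive tumours 10 of 10 and 12 of 12 were lower than in p66Low aggressive tumours. For the members, the p53 targets, the p53 regulators and the Ink4 and p27 genes, results are also given without those 3 libraries. Leaving them out keeps 1 p66Low aggressive tumour. Fewer of all genes were then called in every comparison, with numbers given in the last section. Counts without these libraries are therefore not to be read against the shares called with all 12 tumours. Other results, such as those of Wrap53, Mtap and the basal and cell cycle genes, are from all 12 tumours only. In bulk tumours, fewer cells of a type and less RNA per cell cannot be told apart.

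Differences were tested with edgeR's quasi-likelihood test, and a gene is called when its p is under 0.05 after Benjamini-Hochberg adjustment over the whole set of 19370 genes. In p66High against p66Low parental tumours 2 of the 9 tested members were called, both higher (Mdm4 and Cdkn2b), where 8.08% of all genes were called, 3.98% higher and 4.10% lower. In p66High against p66Low aggressive tumours 3 were called, all higher (Trp53, Mdm4 and Cdkn2b), against 21.0% of all genes, 8.92% higher and 12.1% lower. In aggressive against parental tumours 1 member was called, Cdkn2a, which was higher both among p66Low tumours, where 16.6% of all genes were called (9.60% higher, 7.03% lower), and among p66High tumours, where 5.94% were (3.11% higher, 2.82% lower). The interaction tests whether the p66High minus p66Low difference is the same in aggressive and parental tumours. It called 0 of 9 members by edgeR and by limma-voom, 1 by DESeq2 (Trp53) and 1 by edgeR at an unadjusted p under 0.05. Of all genes 12.4% were called (4.37% higher, 7.99% lower). Without the 3 lymph node-rich libraries the members called were 2 in the parental, 1 in the aggressive (Mdm4), 1 in the p66Low and 1 in the p66High comparison. The 4 comparisons share groups with each other, so they are not independent. The median log2 difference of the members was 0.03, 0.26, -0.03 and 0.19 in the same order, beside -0.01, 0.02, -0.02 and 0.00 for all genes.

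**Figure D1:**
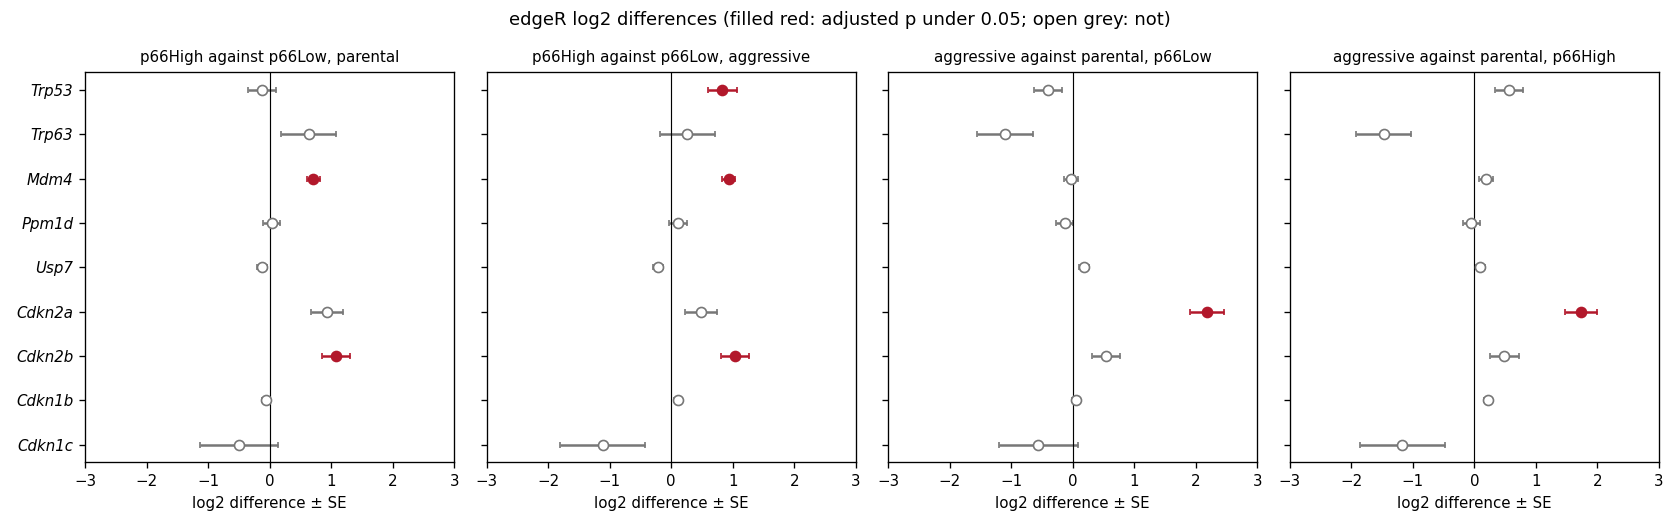
Log2 difference with its SE for the 9 tested members in the 4 comparisons, on a scale where 1 is a doubling. Filled red points were called: Mdm4 and Cdkn2b in both comparisons of p66High with p66Low, Trp53 in the aggressive one, and Cdkn2a in both comparisons of aggressive with parental tumours.

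Trp53, the gene of p53 itself, lies on chromosome 11 (69580359 to 69591873, plus strand). It was at 32.2, 29.3 and 33.4 CPM in p66High aggressive tumours and at 20.2, 18.9 and 14.3 CPM in p66Low aggressive tumours. In p66High parental tumours it was at 25, 12.6 and 26.7 CPM and in p66Low parental tumours at 22.1, 22.3 and 26 CPM. The 3 p66High aggressive tumours were therefore the highest of all 12, and p66High parental replicate 2 was the lowest. Between p66High and p66Low aggressive tumours the difference was 0.83 log2 (SE 0.23, adjusted p = 0.0259), with means of 31.6 ± 2.12 and 17.8 ± 3.06 CPM (SD, n = 3 each). Between p66High and p66Low parental tumours it was -0.13 (SE 0.23, adjusted p = 0.784), with means of 21.4 ± 7.69 and 23.5 ± 2.23 CPM.

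Aggressive against parental tumours gave log2 differences for Trp53 of -0.40 in p66Low (SE 0.23, adjusted p = 0.276) and 0.56 in p66High (SE 0.23, adjusted p = 0.181). Neither was called, although the tumours of the groups did not overlap in either comparison. The interaction was 0.96 (SE 0.33, unadjusted p = 0.0133, adjusted p = 0.0788), so it was not called by edgeR. DESeq2 gave it an adjusted p of 0.047. The aggressive difference was not called without p66High aggressive replicate 1 or 3, without p66Low aggressive replicate 2 or 3, or with library size scaling (adjusted p = 0.0618 to 0.0869), and without the 3 lymph node-rich libraries it was 1.16 (adjusted p = 0.0823).

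The gene next to Trp53, Wrap53, starts 0.1 kb away on the opposite strand and makes a factor that carries telomerase to its site of work. It was at 13.2, 11.9 and 11.8 CPM in p66High aggressive tumours and at 7.66, 6.89 and 5.24 CPM in p66Low aggressive tumours, which do not overlap. p66High parental tumours had 11.4, 9.50 and 11.7 CPM and p66Low parental tumours 11.3, 13.0 and 12.5 CPM. Its differences were 0.91 log2 between p66High and p66Low aggressive tumours (SE 0.16, adjusted p = 0.00267), -0.90 between p66Low aggressive and p66Low parental tumours (adjusted p = 0.00398) and 1.08 for the interaction (SE 0.22, adjusted p = 0.0129). GENCODE gives Trp53 and Wrap53 no shared exon bases. Across the 83 expressed genes within 1 Mb of Trp53, the median difference between p66High and p66Low aggressive tumours was 0.01, with 8 higher and 7 lower. In that comparison 8.92% of all genes were called higher and 12.1% lower.

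Trp63 makes p63, the p53 relative that maintains basal epithelium (chromosome 16, 25683763 to 25892102, plus strand). It was at 5.0, 6.21 and 6.17 CPM in p66High aggressive tumours and at 3.13, 8.53 and 2.68 CPM in p66Low aggressive tumours. p66High parental tumours had 18.1, 15.8 and 14.2 CPM and p66Low parental tumours 5.16, 16.3 and 9.77 CPM. Every p66High aggressive tumour was below every p66High parental tumour, with a log2 difference of -1.47 (SE 0.45) that was not called by edgeR (adjusted p = 0.0791) but was by DESeq2 (adjusted p = 0.012). In p66Low the groups overlapped and the difference was -1.10 (SE 0.45, adjusted p = 0.117). Without p66Low aggressive replicate 2 the p66Low difference was -1.84 and was called (adjusted p = 0.019). The p66High difference was called in 3 of its 20 alternatives: with DESeq2, with only the groups compared (adjusted p = 0.00406), and without p66Low aggressive replicate 2, which leaves it at -1.47 (adjusted p = 0.0283). The deposited counts add the long (TA) starts near 25683763 and the short (ΔN) start at 25801916, so the 2 classes of p63, which activate and restrain targets differently, are summed.

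Basal keratins are given beside Trp63. Krt5, a basal keratin, was at 15.5 CPM in p66Low aggressive replicate 2, where Trp63 was also the highest of its group, and at 3.54 and 4.58 CPM in replicates 1 and 3. In p66Low parental tumours Krt5 was at 6.32, 21.6 and 7.07 CPM, again highest in replicate 2, as Trp63 was. It was at 3.17, 4.79 and 6.6 CPM in p66High aggressive and at 18.8, 9.68 and 15.6 CPM in p66High parental tumours, where its lowest tumour was not that of Trp63. Krt14, its partner, was at 2.74, 6.36 and 9.19 CPM in p66High aggressive tumours and at 21.5, 29.2 and 18.1 CPM in p66High parental tumours (log2 difference -1.92, SE 0.60, adjusted p = 0.0863). Krt14 values were 7.97, 23.0 and 7.26 CPM in p66Low aggressive and 7.4, 29.0 and 10.4 CPM in p66Low parental tumours. The summed level of the 20 genes of a basal and p63 list did not order the tumours as Trp63 did: the sums were 941, 1180 and 1350 CPM in p66Low aggressive tumours, highest in replicate 3, where Trp63 was lowest. The median log2 level of the list, taken against p66Low parental tumours, was highest in the same tumour as Trp63 in every group. Those medians were -0.71, 0.21 and -0.55 in p66Low aggressive and -0.1, 0.37 and -0.06 in p66Low parental tumours. The lowest tumour differed from that of Trp63 in the p66Low aggressive and p66High parental groups. Of the 19 genes of that list that were tested, 1 was higher and 4 were lower in aggressive tumours both within p66High (median -0.69) and within p66Low (median -0.50). Those calls were 26.3% of the 19 in each, beside 5.94% and 16.6% of all genes. In p66High the lower ones included Krt15, another basal keratin (-3.46, SE 0.74, adjusted p = 0.0202), and Jag2, a Notch ligand (-1.04, SE 0.23, adjusted p = 0.0224), while Pkp1, a desmosomal plakophilin, was higher (1.05, SE 0.25, adjusted p = 0.0296). The part of basal cells in the Trp63 values was not tested.

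Trp73, the gene of p73, gave too few reads for the test (chromosome 4, 154056253 to 154140208, minus strand). Its raw counts were 4, 8 and 6 in p66High aggressive tumours, 0, 32 and 10 in p66Low aggressive tumours, 10, 2 and 10 in p66High parental tumours and 0, 0 and 2 in p66Low parental tumours. The count of 32 is the only one above 10. It comes from a library rich in lymph node genes, and 280 exon bases of Trp73 overlap the antisense gene Trp73os. A count of 3, taken as the detection floor, is worth 0.0394 to 0.156 CPM here, covering counting error only.

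**Figure D2:**
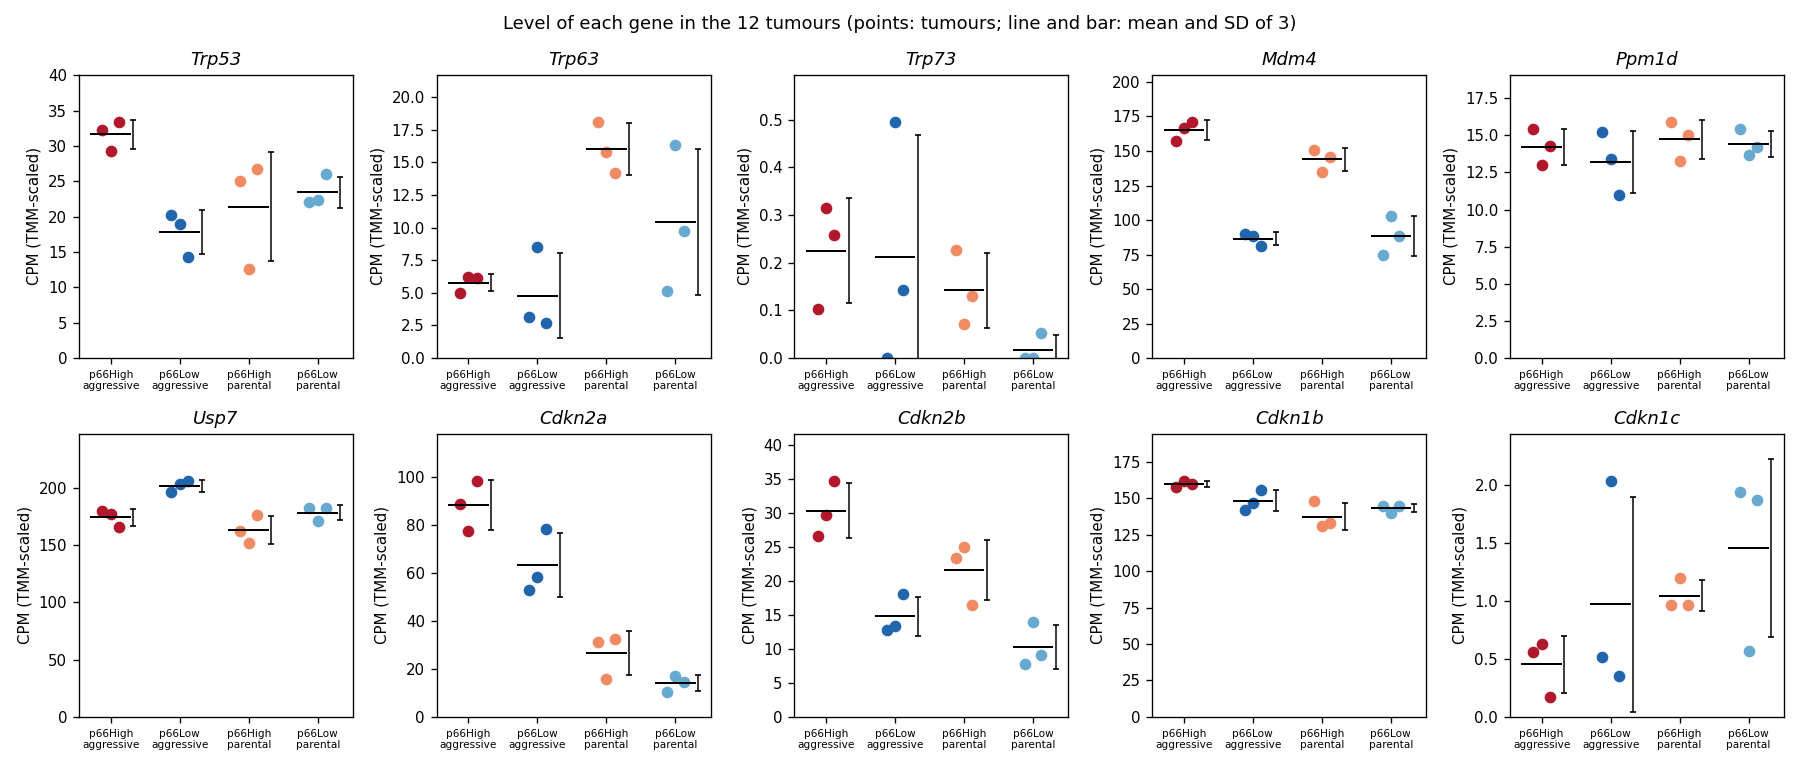
CPM of each of the 10 genes in every tumour (points), with the mean (line) and SD (bar, n = 3; cut at 0) of each group. The 3 p66High aggressive tumours lie highest for Trp53 (29.3 to 33.4 CPM), all 6 aggressive tumours lie above the parental ones for Cdkn2a, and the 6 p66High tumours lie above the 6 p66Low ones for Mdm4.

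Mdm4, which binds p53 and blocks its activation of targets, was higher in p66High tumours of both kinds (chromosome 1, 132959484 to 133030561, minus strand). It was at 157, 167 and 171 CPM in p66High aggressive tumours, against 90.2, 88.1 and 81.1 CPM in p66Low aggressive ones. Its level was 151, 135 and 146 CPM in p66High parental tumours, against 74.3, 103 and 88.5 CPM in p66Low parental tumours. The lowest p66High tumour (135 CPM) was above the highest p66Low tumour (103 CPM). The log2 difference was 0.93 in aggressive (SE 0.11, adjusted p = 0.000364) and 0.71 in parental tumours (SE 0.11, adjusted p = 0.00280). The interaction was 0.23 (SE 0.15, adjusted p = 0.366), and aggressive against parental tumours gave -0.03 in p66Low (adjusted p = 0.883) and 0.19 in p66High (adjusted p = 0.321). Both p66High differences were called in all 20 alternative analyses, at 0.85 to 1.04 and 0.60 to 0.83.

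The median coding gene on the chromosome of Mdm4 was also above 0 in both comparisons. In p66High against p66Low parental tumours the 881 tested coding genes of chromosome 1 had a median log2 difference of 0.49, with 321 called and 309 of those higher. In the aggressive comparison the median was 0.36, with a lower quartile of -0.48, 488 called and 371 of those higher. Those calls were 36.4% and 55.4% of the 881, beside 8.08% and 21.0% of all genes. Mdm4 stood 0.22 above the chromosome median in parental and 0.57 above it in aggressive tumours. Its nearest expressed coding neighbours, Lrrn2 (19.5 kb) and Pik3c2b (15.1 kb), had parental differences of 1.17 (SE 0.39) and 0.34 (SE 0.16) and aggressive differences of 0.42 (SE 0.39) and 0.27 (SE 0.16), none of them called. The part of this chromosome-wide difference in the Mdm4 values was not tested.

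Ppm1d, the phosphatase that switches p53 signalling off and is itself a p53 target, was at much the same level in every group (chromosome 11, 85311244 to 85347066, plus strand). It was at 15.4, 13.0 and 14.3 CPM in p66High aggressive tumours and at 15.2, 13.4 and 11 CPM in p66Low aggressive tumours. p66High parental tumours had 15.9, 13.3 and 15 CPM and p66Low parental tumours 15.4, 13.7 and 14.2 CPM. All 4 groups overlapped, and none of its log2 differences, between -0.13 and 0.11 with an SE of 0.14, was called.

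Usp7, the deubiquitinase of Mdm2 and p53, was at 180, 177 and 166 CPM in p66High aggressive tumours, below the 196, 203 and 206 CPM of p66Low aggressive tumours (chromosome 16, 8689595 to 8792308, minus strand). It was at 162, 152 and 176 CPM in p66High parental and at 182, 171 and 182 CPM in p66Low parental tumours. The aggressive difference was -0.21 log2 (SE 0.08) and was not called by edgeR (adjusted p = 0.0823). The p66Low aggressive tumours were also above the p66Low parental ones, by 0.18 (SE 0.08, adjusted p = 0.151). DESeq2 called both (adjusted p = 0.009 and 0.037). With edgeR the aggressive difference was called under RLE scaling (adjusted p = 0.0484). It was also called without p66Low parental replicate 2 (adjusted p = 0.041) or p66High parental replicate 2 (adjusted p = 0.0293).

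Among 33 other p53 regulators, 1 was higher and 2 were lower in p66High than in p66Low parental tumours, and 5 were higher and 3 lower in the aggressive comparison. These were 9.09% and 24.2% of the 33, beside 8.08% and 21.0% of all genes. Cyclin G1 (Ccng1), which recruits a phosphatase to Mdm2, was 0.89 higher in the aggressive comparison (SE 0.08, adjusted p = 7.88e-05). Ccng1, like Mdm2, is also counted among the p53 target genes below. The ubiquitin ligase Cop1, listed as Rfwd2, was 0.68 higher in the aggressive comparison (SE 0.09, adjusted p = 0.000852) and 0.64 higher in the parental one (SE 0.09, adjusted p = 0.00221). The ligase Ube4b was lower in parental p66High tumours (-0.82, SE 0.13, adjusted p = 0.00336). The part of chromosome-wide differences, as given for Mdm4, in the values of these regulators was not tested. Mdm2, the main p53 ligase and a p53 target, was at 116, 106 and 124 CPM in p66High aggressive and at 73.1, 79.1 and 80.0 CPM in p66Low aggressive tumours, and at 115, 99.2 and 108 CPM in p66High parental and 106, 118 and 111 CPM in p66Low parental tumours. The p66Low aggressive tumours were the low group: p66High against p66Low aggressive gave 0.57 (SE 0.09, adjusted p = 0.00143) and p66Low aggressive against parental -0.53 (SE 0.09, adjusted p = 0.00315). On selection 4 regulators were higher and 4 lower in p66Low, and 2 were higher and 1 lower in p66High. These were 24.2% and 9.09% of the 33, beside 16.6% and 5.94% of all genes. Without the 3 lymph node-rich libraries 2, 2, 3 and 0 regulators were called in the parental, the aggressive, the p66Low and the p66High comparison. The ligase Trim24 was up in both, by 1.10 (SE 0.15, adjusted p = 0.00100) and 0.77 (SE 0.14, adjusted p = 0.0108).

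The median over 35 p53 target genes was lowest in p66Low aggressive tumours. Relative to the p66Low parental mean, the median log2 level of the targets was -0.18, -0.25 and -0.06 in p66High aggressive, -0.78, -0.74 and -0.58 in p66Low aggressive, -0.11, -0.17 and -0.17 in p66High parental and -0.09, 0.08 and -0.01 in p66Low parental tumours. On the same scale Trp53 was at 0.46, 0.32 and 0.51 in p66High aggressive, -0.21, -0.31 and -0.70 in p66Low aggressive, 0.09, -0.89 and 0.19 in p66High parental and -0.08, -0.07 and 0.15 in p66Low parental tumours. The p66Low aggressive tumours were thus low for the targets and, except for p66High parental replicate 2, for Trp53. That parental tumour had the lowest Trp53 and a target median like those of its group. In p66High aggressive tumours Trp53 was above, and the target median below, the p66Low parental mean.

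Of the 35 targets, 19 were higher and 1 was lower in p66High than in p66Low aggressive tumours (median 0.66), and 21 were lower in p66Low aggressive than in p66Low parental tumours (median -0.70). Over all genes the calls were 21.0% and 16.6% and the medians 0.02 and -0.02. The interaction called 17 targets higher and 1 lower (median 0.65, beside 0.05 for all genes). These were 51.4% of the 35, beside 12.4% of all genes (4.37% higher, 7.99% lower). Without the 3 lymph node-rich libraries it called fewer targets higher. In p66High against p66Low parental tumours 4 were lower (median -0.18), and in p66High aggressive against parental tumours 2 were (median -0.01). These were 11.4% and 5.71% of the 35, beside 8.08% and 5.94% of all genes. Without the 3 lymph node-rich libraries the counts were 11 higher (median 0.66), 11 lower (median -0.61), 2 lower and 0 called. Cdkn1a (p21), the CDK inhibitor that p53 induces, was at 13.3, 15.6 and 26.7 CPM in p66High aggressive tumours against 3.33, 3.33 and 5.41 CPM in p66Low aggressive ones. In p66High parental tumours it was at 16.1, 8.83 and 14.4 CPM, below the 34.1, 56.0 and 37.6 CPM of p66Low parental tumours. Its log2 difference between p66High and p66Low was 2.18 in aggressive (SE 0.33, adjusted p = 0.00133) and -1.70 in parental tumours (SE 0.32, adjusted p = 0.00758), and the interaction was 3.88 (SE 0.46, adjusted p = 0.00153). Psrc1, a microtubule regulator, and Phlda3, an Akt inhibitor, were 2.52 (SE 0.18, adjusted p = 1.98e-05) and 2.70 (SE 0.26, adjusted p = 0.000158) higher in p66High than in p66Low aggressive tumours.

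**Figure D3:**
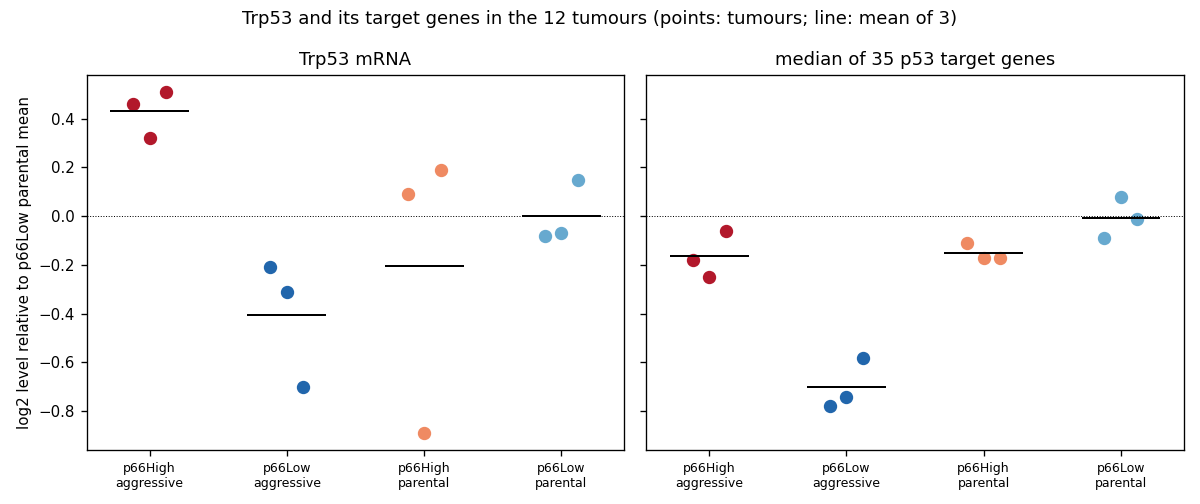
Left, log2 level of Trp53 in each tumour relative to the p66Low parental mean; right, the median of 35 p53 target genes on the same scale (points, tumours; lines, means of 3). The p66Low aggressive tumours are lowest for the targets (-0.78 to -0.58), and p66High parental replicate 2 is lowest for Trp53 (-0.89) with a target median of -0.17.

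Cdkn2a was the member that differed most between aggressive and parental tumours (chromosome 4, 89274471 to 89294653, minus strand; its windows are the first and second shown above). It was at 88.8, 77.6 and 98.4 CPM in p66High aggressive and at 53, 58.5 and 78.3 CPM in p66Low aggressive ones. Its level was 31.4, 15.9 and 32.4 CPM in p66High parental and 10.5, 17.2 and 14.4 CPM in p66Low parental tumours. All 6 aggressive tumours were above all 6 parental ones. The difference was 2.18 log2 in p66Low (SE 0.27, adjusted p = 0.000731, 4.53-fold) and 1.73 in p66High (SE 0.26, adjusted p = 0.00387, 3.31-fold). Both were called in all 20 alternatives, at 1.99 to 2.48 and 1.46 to 1.90.

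Group means of Cdkn2a were 88.2 ± 10.4 CPM in p66High aggressive, 63.3 ± 13.3 CPM in p66Low aggressive, 26.6 ± 9.28 CPM in p66High parental and 14 ± 3.36 CPM in p66Low parental tumours (SD, n = 3 each). The order within each pair is not settled by the test. p66High against p66Low gave 0.48 in aggressive (SE 0.26, adjusted p = 0.221) and 0.93 in parental tumours (SE 0.26, adjusted p = 0.0533), and the interaction was -0.45 (SE 0.37, adjusted p = 0.446). The parental difference passed in 8 of the 20 alternatives, DESeq2 among them (adjusted p = 0.007), and it was 1.19 (adjusted p = 0.009) without p66High parental replicate 2. That replicate had the lowest Cdkn2a, Trp53 and Cdkn1a of its group. Among p66Low aggressive tumours, replicate 3 had the least of the lymph node markers (6.88 CPM) and the most Cdkn2a (78.3 CPM), and the difference on p66Low selection was as large without the 3 lymph node-rich libraries (2.48).

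Cdkn2b, 11.6 kb from Cdkn2a (89306299 to 89311039, minus strand), was higher in p66High tumours of both kinds. It was at 26.6, 29.7 and 34.7 CPM in p66High aggressive tumours, against 12.8, 13.4 and 18.1 CPM in p66Low aggressive ones. Its level was 23.3, 24.9 and 16.5 CPM in p66High parental tumours, against 7.75, 13.9 and 9.05 CPM in p66Low parental tumours. The groups did not overlap in either pair, and the log2 differences were 1.04 (SE 0.23, adjusted p = 0.00906) and 1.08 (SE 0.23, adjusted p = 0.0156), with an interaction of -0.05 (SE 0.33, adjusted p = 0.944). Aggressive against parental tumours gave 0.54 in p66Low (SE 0.23, adjusted p = 0.140) and 0.49 in p66High (SE 0.23, adjusted p = 0.230). The parental p66High difference was not called without p66High parental replicate 1 or 2 or p66Low parental replicate 1 or 3, nor with tumours that share a title number summed (adjusted p = 0.0574 to 0.0781). The aggressive one was 0.76 (SE 0.30, adjusted p = 0.201) without the 3 lymph node-rich libraries.

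The genes around Cdkn2a are given for the same comparisons, with no test of their difference from it. The nearest, Cdkn2b, had the uncalled 0.54 and 0.49 above, and its p66Low difference was 0.83 and called without p66Low parental replicate 2 (adjusted p = 0.029). The 920 tested coding genes of chromosome 4 had a median of 0.02 on selection in both p66Low and p66High. On the other side of Cdkn2a, Mtap, a purine salvage enzyme, is 93.4 kb away and had -0.03 (SE 0.16, adjusted p = 0.916) in p66Low and 0.36 (SE 0.16, adjusted p = 0.196) in p66High. Mtap was at 61.7, 60.1 and 77.8 CPM in p66High aggressive tumours and at 47.5, 40.5 and 42.1 CPM in p66Low aggressive tumours, a called difference of 0.62 (SE 0.16, adjusted p = 0.0159). In parental tumours that difference was 0.22 (SE 0.16, adjusted p = 0.421). Elsewhere on this chromosome, around Trp73, 11 of 18 expressed genes within 1 Mb were lower in p66High than in p66Low parental tumours and 14 of 18 in the aggressive comparison (medians -0.76 and -0.91). Over all genes 4.10% and 12.1% were called lower in these comparisons.

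**Figure D4:**
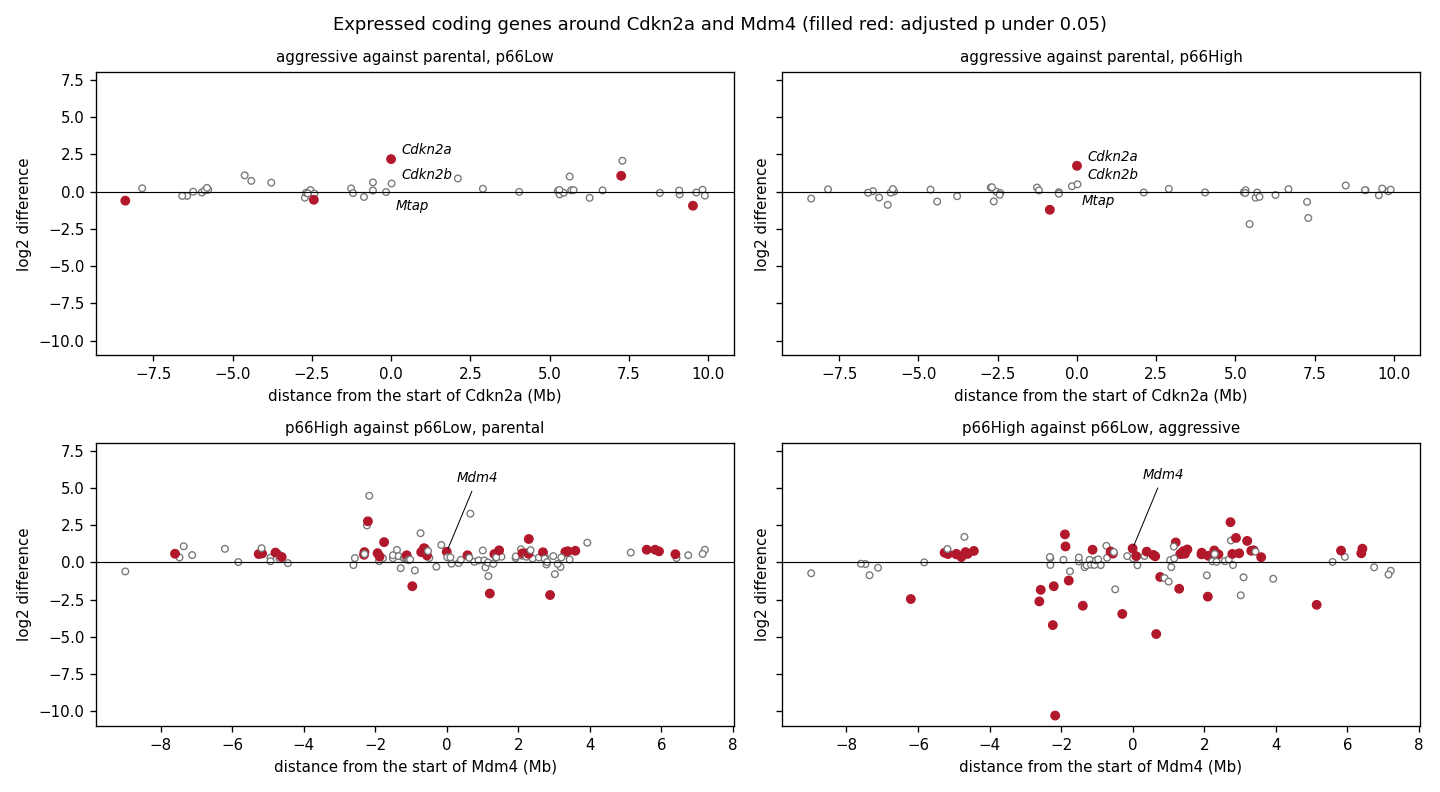
Log2 difference of expressed coding genes within 10 Mb of Cdkn2a on selection (top) and of Mdm4 in p66High against p66Low tumours (bottom), by distance from the start of each gene in Mb; filled red points were called. Cdkn2a was called at 2.18 and 1.73 and its nearest neighbours, Cdkn2b and Mtap, were not, while Mdm4, at 0.71 and 0.93, lies among many called genes.

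Of 22 genes that are known to bind or regulate the Ink4 locus, 2 were higher in p66High than in p66Low parental tumours, and 5 were higher and 2 lower in the aggressive comparison. On selection 2 were higher and 4 lower in p66Low, and 1 was higher and 1 lower in p66High. The shares called were 9.09%, 31.8%, 27.3% and 9.09% in that order, beside 8.08%, 21.0%, 16.6% and 5.94% of all genes. The Polycomb gene Cbx8 was lower in p66Low aggressive than in p66Low parental tumours (-0.40, SE 0.11, adjusted p = 0.0327). With library size scaling 3 of the 22 were higher and 0 lower on p66Low selection, so the Cbx8 call is lost there, and without the 3 lymph node-rich libraries 0 were called on either selection and 1 in each comparison of p66High with p66Low. In p66High selection Twist1, a transcription factor that represses the locus, was higher (0.59, SE 0.12, adjusted p = 0.0160) and Ets2, an activator of p16Ink4a, was lower (-0.80, SE 0.16, adjusted p = 0.0169). Rnf2, another Polycomb gene, was 0.85 higher (SE 0.11, adjusted p = 0.00110) and Tbx2, a repressor of Arf, 1.16 higher (SE 0.27, adjusted p = 0.0225) in p66High than in p66Low parental tumours. The part of chromosome-wide differences in these values was not tested.

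Cdkn1b, the gene of p27, was the most even of the 10 genes, with 1.24-fold between its lowest and highest tumour (chromosome 6, 134920401 to 134925513, plus strand). It was at 158, 162 and 160 CPM in p66High aggressive, 142, 147 and 156 CPM in p66Low aggressive, 148, 131 and 133 CPM in p66High parental and 145, 140 and 145 CPM in p66Low parental tumours. The p66High aggressive tumours were the highest group, and did not overlap the p66High parental ones, at 0.22 log2 (SE 0.07, adjusted p = 0.108). No comparison was called by edgeR, and DESeq2 called that one (adjusted p = 0.026). Of 15 genes of p27 turnover and transcription, 3 were higher in p66High than in p66Low aggressive tumours, among them the transcription factor Foxo3 (0.73, SE 0.16, adjusted p = 0.00901) and the signalosome subunit Cops5 (0.65, SE 0.13, adjusted p = 0.00519). On p66Low selection 2 of the 15 were lower, the ubiquitin ligase parts Fbxo32 (-0.71, SE 0.14, adjusted p = 0.00692) and Rbx1 (-0.55, SE 0.13, adjusted p = 0.0165). Both counts lie below the shares called over all genes, 21.0% in the aggressive comparison and 16.6% on p66Low selection. Without the 3 lymph node-rich libraries none of the 15 was called in any of the 4 comparisons. p27 is controlled largely as a protein, which these counts do not measure.

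Cdkn1c, the imprinted gene of p57, had few reads, 4 to 132 counts a tumour (chromosome 7, 143458339 to 143461050, minus strand). It was at 0.558, 0.628 and 0.173 CPM in p66High aggressive, 0.521, 2.04 and 0.357 CPM in p66Low aggressive, 0.970, 1.2 and 0.971 CPM in p66High parental and 1.94, 0.568 and 1.87 CPM in p66Low parental tumours. The p66High aggressive tumours were all below the p66High parental ones, at -1.17 log2 (SE 0.69, adjusted p = 0.349), and no comparison was called. The 2.04 CPM came from the tumour with the highest summed level of 10 fibroblast markers, 6210 CPM against 1320 to 4220 CPM in the other 11. That tumour was also the highest for lymph node stroma, B cell, T cell, macrophage and myoepithelium markers. Fibroblast sums were 2540 and 2930 CPM in p66Low parental replicates 1 and 3. They were 3900 CPM in p66High parental replicates 1 and 2, where Cdkn1c was lower. The part of any cell type in the Cdkn1c values was not tested. Of 11 tested imprinted neighbours, Slc22a18, a transporter, was lower in p66High than in p66Low tumours both in the aggressive (-1.93, SE 0.42, adjusted p = 0.00753) and the parental comparison (-2.25, SE 0.41, adjusted p = 0.00611).

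Of 18 other CDK inhibitors, D and E cyclins, their kinases, RB and E2F genes, 1 was lower in p66High than in p66Low parental tumours, 2 were higher in the aggressive comparison, 2 were higher and 1 lower on p66Low selection and 1 was higher on p66High selection. These counts lie near or below the shares called over all genes (8.08%, 21.0%, 16.6% and 5.94%). Apart from Cdkn1a, Cdk4, a target of the INK4 proteins, was higher in p66High than in p66Low aggressive tumours (0.39, SE 0.10, adjusted p = 0.02), and Cdk6 and Ccnd2 were higher in p66Low aggressive than in p66Low parental tumours (0.58, SE 0.15, adjusted p = 0.0249 and 1.39, SE 0.38, adjusted p = 0.0295). Ccnd2 varied widely among p66Low aggressive tumours, at 35.8 ± 19.2 CPM against 13.6 ± 0.918 CPM in p66Low parental tumours (SD, n = 3 each). Cdkn2c, the gene of p18Ink4c, was higher on p66High selection (0.42, SE 0.11, adjusted p = 0.0425).

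Per length of transcript (RPKM over the GENCODE exons, medians over 12 tumours), the order of levels was Cdkn2a 36.5, Cdkn1b 32.1, Usp7 23.0, Cdkn2b 12.5, Mdm4 8.03, Trp53 5.84, Ppm1d 4.49, Trp63 0.878, Cdkn1c 0.392 and Trp73 0.021. Between the lowest and the highest tumour, levels spanned 1.36-fold for Usp7, 1.45-fold for Ppm1d, 2.3-fold for Mdm4, 2.65-fold for Trp53, 4.48-fold for Cdkn2b, 6.75-fold for Trp63, 9.37-fold for Cdkn2a and 11.8-fold for Cdkn1c. The genes with the most even levels were thus all without a call, and Cdkn2a had the widest span of the called ones.

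Across the 12 tumours and 12145 coding genes, the closest pattern to Trp53 was that of Ccp110 (Pearson r = 0.937), then Hnrnpu (0.924) and Zfp566 (0.918). The closest to Mdm4 was Ing3 (0.981), followed by Ccnt2 (0.966) and Stk16 (0.965), both on chromosome 1 as Mdm4 is. For Cdkn2a these were Chd7 (0.974), Itpr1 (0.968) and Hoxa5 (0.963), and for Cdkn2b Trip12 (0.973), Ppox (0.960) and Dstyk (0.953), all on chromosome 1 although Cdkn2b is on chromosome 4. The tumours fall into 4 groups, so such values follow group levels and are a description only.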

How the data were processed

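RNA from 12 bulk mammary tumours in 4 groups of 3 was measured as ribosomal RNA-depleted stranded libraries, per the labels' protocols. Per the submitters' processing notes, reads were handled with featureCounts 1.4.4, STAR 2.3.0e and Trimmomatic 0.32 on mm10. The deposited values are raw read counts for each gene. They are labelled as exon counts over Ensembl genes (ensGene). The sources used here do not give the release of that annotation, the strand setting or the treatment of multi-mapping reads.

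Counts were filtered with filterByExpr (19370 of 39017 genes), scaled by TMM and tested in R 4.3.3 with edgeR 4.0.16 (quasi-likelihood F-test, 4 groups, 12 tumours, 8 residual degrees of freedom, Benjamini-Hochberg threshold 0.05). SE is the absolute log2 difference over the square root of F. The fit was tested on simulated data. Symbols and coordinates came from GENCODE vM21, matching 37607 genes (96.4%), and promoter windows from RefSeq GRCm38.p6. The list symbol Kcnq1ot1 had no match.

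The 10 members, the 16 gene lists and the tests were chosen with earlier results of these data known. Beyond the members, up to 3 genes of a list with the smallest p were named per comparison, plus Cdkn1a, Mdm2, Krt5, Krt14, the nearest expressed neighbours and the 3 genes closest in pattern to each called member. Shc1 and Erbb2 are given as ranges, to check the labels. Some genes that this rule took are left out of the text.

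Alternatives were RLE and library size scaling, no filter, DESeq2 1.42.0, limma-voom (limma 3.58.1), only the groups compared, summing tumours of a group that share a title number, leaving out each tumour, and leaving out the 3 libraries with over 20 CPM of lymph node genes. No 2 tumours of a group agreed within sampling noise (lowest chi-square per degree of freedom 19.1). The spread that p-values measure is that between these samples and may be technical. Precision is set by 17.4 to 76.1 M counts a tumour.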

Additional observations from a re-analysis of the deposited data

Results flagged for a closer look

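For some genes outside the 10 members, the interaction term of the edgeR fit was called (log2, positive where p66High minus p66Low was larger in aggressive tumours). It compares 4 cell populations, so the part of p66ShcA in it cannot be told apart. The values are from all 12 tumours and are not given without the 3 lymph node-rich libraries. Among p53 targets the interaction was 3.88 (SE 0.46) for Cdkn1a, 2.89 (SE 0.24) for Psrc1 and 1.15 (SE 0.14) for Bax. Among p53 regulators it was 0.86 (SE 0.11) for Ccng1, 0.65 (SE 0.17) for Trp53bp1 and 0.63 (SE 0.12) for Mdm2, where Ccng1 and Mdm2 are p53 targets too. The interaction was 1.08 for Wrap53, the neighbour of Trp53. Among cell cycle and Ink4 locus genes it was 1.04 (SE 0.27) for Ccnd1, 0.98 (SE 0.17) for Twist1 and -1.68 (SE 0.48) for Ets1. Near Cdkn1c it was 2.78 (SE 0.75) for Phlda2. Phlda2 had low means of 0.71 CPM in p66Low aggressive and 2.51 CPM in p66Low parental tumours, which overlapped. In the basal and p63 list the interaction was 3.84 (SE 0.36) for Pkp1, -1.21 (SE 0.32) for Jag2 and -5.79 (SE 1.63) for Dsc3. Twist1, a repressor of the Ink4 locus, was at 31.2 ± 3.74 CPM in p66High aggressive and 16.1 ± 0.709 CPM in p66Low aggressive tumours (SD, n = 3 each).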

How the results depend on the processing

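Of 891 member values under the 20 alternatives, 834 kept their direction and side of the threshold, 25 reversed, 20 passed it newly and 12 lost it. The calls of Mdm4 in p66High against p66Low tumours and of Cdkn2a on selection held in all 20. No reversed value was a call. Without the lymph node-rich libraries, which leaves 5 residual degrees of freedom and 1 p66Low aggressive tumour assumed to vary like the others, the interaction reversed for Trp63 (0.40) and Cdkn1c (0.83), as did Cdkn1c in p66High against p66Low aggressive tumours (0.38). With library size scaling Mdm4 on p66Low selection was 0.08 and the Ppm1d interaction -0.04, and with summed tumours the Cdkn2b interaction was 0.06. Leaving out 1 tumour at a time gave, for p66High against p66Low parental tumours, -0.31 to 0.14 for Trp53 and -0.03 to 0.09 for Ppm1d; for the aggressive comparison, -0.04 to 1.00 for Trp63 and -1.54 to 0.12 for Cdkn1c. On selection it gave -0.12 to 0.11 for Mdm4 in p66Low and -0.12 to 0.01 for Ppm1d in p66High. For the interaction it gave -0.88 to 0.37 for Trp63, -0.03 to 0.18 for Ppm1d, -0.35 to 0.13 for Cdkn2b and -1.03 to 0.62 for Cdkn1c. The causes were not tested.

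Genes called in p66High against p66Low parental tumours numbered 1565, and 2549 with DESeq2, 908 with summed tumours, 838 without the lymph node-rich libraries and 871 to 1927 leaving out 1 tumour. In the aggressive comparison they were 4077, against 1075 without those libraries and 2438 to 4502. On p66Low selection they were 3221, against 2128 with only the groups compared, 705 without those libraries and 1545 to 3505. On p66High selection they were 1150, against 2261 with DESeq2, 305 summed, 586 without those libraries and 457 to 1469. For the interaction they were 2395, against 1179 summed, 335 without those libraries and 1179 to 3278. Library size scaling made 73.6% of p66Low selection calls higher, against 57.7%, and 23.3% of interaction calls, against 35.4%. No paired analysis was possible because the labels pair no tumours across groups, and no title number is shared between groups. The replicate numbers used here follow the order of the samples. Depth limits Trp73 and Cdkn1c.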
